A study of Mus musculus with 6 samples.

Results

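The genes described here are 9 regulators of apoptosis in mouse melanoma cells: the BCL2 family genes Mcl1, Bcl2l1, Bax, Bak1, Bmf and Bcl2l13, the death receptor adaptor and regulator genes Fadd and Cflar, and Cycs, the gene of cytochrome c. They were taken by gene symbol from the authors' table of all transcripts, which holds 14 rows for them among 15905 transcripts of 8513 genes. B16.F10 is a pigmented mouse melanoma line, genotype WT per the labels. It was given 3.5 µM simvastatin for 24 h (3 samples) or no treatment (3 samples), and bulk RNA was sequenced. The labels call the dose the IC50 of the line, name no vehicle for the untreated cells, and give all samples the same batch date. Simvastatin blocks the enzyme that makes mevalonate. All cells are of this line, so the groups describe 1 line at 1 dose and 1 time.

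Apoptosis through mitochondria is set by the BCL2 family. Anti-apoptotic members such as MCL1 and BCL-XL (Bcl2l1) hold the pore-forming effectors BAX and BAK in check, and BH3-only members such as BMF bind and neutralise the anti-apoptotic proteins. Once the outer mitochondrial membrane is permeable, cytochrome c leaves and helps to activate caspases. Death receptors reach the caspases by another route, through the adaptor FADD and caspase-8, which the caspase-like protein c-FLIP (Cflar) can block.

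The authors' deposited table gives 1 value per group and transcript, and none of the sources used here names their unit or the depth of the libraries. Values of single samples were not analysed here, so a value has no SD beside it. The spread between samples enters only through the authors' p-value and adjusted p-value, whose test the sources used here do not name. A transcript is said to have risen or fallen where the adjusted p was under 0.05. The authors' own call is wider and reached an adjusted p of 0.2 at a fold of at least 1.5. The unit may or may not be per length, so levels are not compared between genes. The melanocyte markers listed for the line all had rows (7 of 7), with gene totals between 44.2 and 3437 over both groups. Of 8 markers of leukocytes, endothelium, keratinocytes and fibroblasts, only Cd68 had a row, at 0.93 with simvastatin and 0.37 in control. The others had no row and so no value here.

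Of the 14 transcripts, 1 fell and none rose. The transcript that fell was a short form of Bcl2l13, while the long form of the same gene and the gene total both lay within 1.2-fold of control. The effector genes Bax and Bak1 and the anti-apoptotic genes Mcl1 and Bcl2l1 gave no call. Rows were present for 2 of 8 listed anti-apoptotic genes and 2 of 3 listed effector genes. Bmf and Cflar had higher values with simvastatin and carried the authors' call, but not an adjusted p under 0.05. Over all transcripts, 1.11% rose and 0.987% fell by the adjusted p. The authors' call covered 5.13% as higher and 4.37% as lower, against 3 and 1 of the 14. Without adjustment, 3 of the 14 were higher and 3 lower at a p under 0.05, against 9.42% and 10.2% of all transcripts. The 9 genes were picked with results of these data known, so these counts are a description of the genes and not a test of them.

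Bcl2l13 encodes a divergent BCL2-like protein of the outer mitochondrial membrane that also acts as a receptor for mitophagy. The table holds 2 of its transcripts, and GENCODE release 21 (GRCm38) gives their structure. The long form (ENSMUST00000009256, chromosome 6, 120836238 to 120892842, plus strand) has 7 exons, a length of 6925 bases and a coding sequence of 1302 bases before the stop codon. The short form (ENSMUST00000203037, chromosome 6, 120836226 to 120876317) has 3 exons and 408 bases. It joins exon 2 directly to exon 6 of the long form and so lacks exons 3, 4 and 5, which hold 335 bases. Its annotated coding part of 227 bases has no stop codon, because the model is tagged as incomplete at its 3′ end. GENCODE gives it transcript support level 5, against level 1 for the long form.

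The coding sequence of the short form is shown with the junctions of the long form that it replaces, because the 2 forms are told apart there. Capitals mark the bases after the junction, and all sequences run 5′ to 3′ on the plus strand of GRCm38, with introns left out.
Bcl2l13 short form, exon 2 joined to exon 6, chr6:120848505-120876317: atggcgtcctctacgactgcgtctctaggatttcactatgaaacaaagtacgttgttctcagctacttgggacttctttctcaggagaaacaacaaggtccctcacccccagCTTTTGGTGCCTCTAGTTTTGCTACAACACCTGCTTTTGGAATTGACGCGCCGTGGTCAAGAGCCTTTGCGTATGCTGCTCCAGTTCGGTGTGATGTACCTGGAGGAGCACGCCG
Bcl2l13 long form, exon 2 joined to exon 3, chr6:120848587-120862884: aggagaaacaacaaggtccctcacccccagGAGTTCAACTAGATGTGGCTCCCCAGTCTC
Bcl2l13 long form, exon 5 joined to exon 6, chr6:120870806-120876232: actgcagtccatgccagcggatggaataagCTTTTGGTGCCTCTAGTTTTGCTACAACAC

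Besides the junction, 12 bases at the 5′ end of the short form are not part of the long form, and its other bases are shared. Exon 6 starts after 112 coding bases in the short form and after 447 in the long form. The remainders on division by 3 are 1 and 0, so the same exon 6 bases are read in different frames. The model ends within exon 6 and holds none of exon 7, where the long form keeps the rest of its coding sequence. Because the model is tagged as incomplete at its 3′ end, whether the RNA itself runs further is not known.

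The short form of Bcl2l13 fell to 0.37 with simvastatin, against 3.27 in control, which is 8.87-fold lower in the authors' deposited table (their adjusted p = 0.038, p printed as 0 to 3 decimals). Over all transcripts, 5.11% had a larger fold in either direction, and among the 157 that fell this one ranked at place 21 by fold. The simvastatin value of 0.37 is low, so the size of this fold depends on how low values are treated. A fold with 1 added to each value was not computed for this transcript. In bulk RNA, fewer cells that carry a transcript and less of it per cell cannot be told apart. The long form stood at 20.5 with simvastatin and 19.1 in control, 1.07-fold higher in the authors' deposited table (their adjusted p = 0.71). The 2 forms therefore differed in direction, and only the short one passed.

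Summed over both forms, Bcl2l13 reached 20.9 with simvastatin and 22.4 in control, a log2 ratio of -0.10 for the gene total. The short form made up 1.77% of that total with simvastatin and 14.6% in control. These are shares of the deposited values, so they would differ on a scale with another treatment of transcript length. The sign of the gene ratio turned to 0.09 when each group was scaled by its sum over all transcripts. Such a gap between a transcript and its gene occurred elsewhere in the table. Of 78 transcripts that fell in genes with more than 1 row, 19 belonged to genes whose total lay within 1.2-fold of control. The short form of Bcl2l13 was also short for this table, since 349 of 11635 matched Ensembl transcripts (3.00%) were no longer. Of these 349, 9 passed the threshold in either direction (2.58%). Over all 15905 transcripts, assembled models included, 333 passed in either direction. Their shares were 1.11% as higher and 0.987% as lower, and the sum of these is the share to set beside 2.58%. Whether transcript length bears on the value was not tested.

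**Figure D1:**
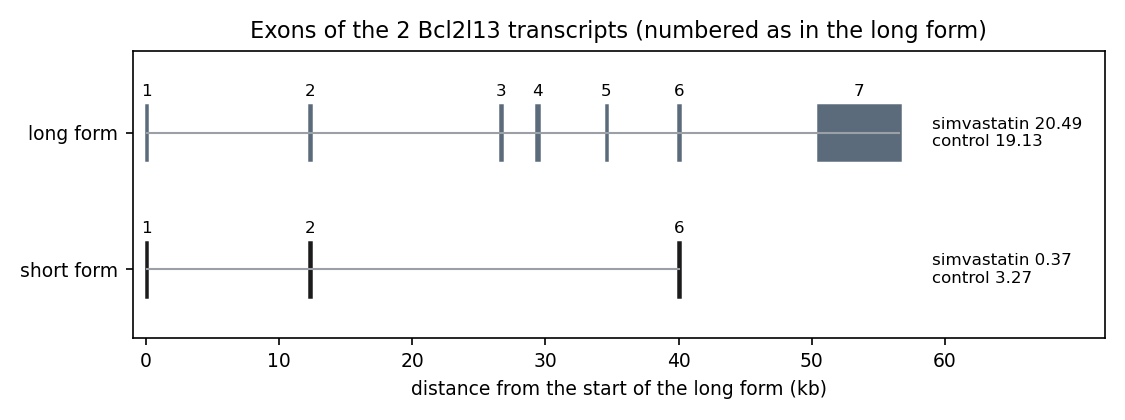
Exons of the long and the short Bcl2l13 transcript, drawn to scale by distance in kb from the start of the long form, with the authors' group values at the right. The short form joins exon 2 to exon 6 and stood at 0.37 with simvastatin and 3.27 in control, while the long form stood at 20.5 and 19.1.

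In an additional table of 46 transcripts that the authors linked to aggressiveness, the short form of Bcl2l13 is the 1 transcript of the 9 genes, with the same signed fold of -8.87 in the authors' deposited table. It is among 3 transcripts with a negative fold there, and the other 43 have a positive one.

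None of the 3 transcripts of the anti-apoptotic genes passed, and all 3 had higher values with simvastatin. Mcl1 encodes a short-lived protein that holds BAK and BH3-only proteins. Its single transcript (ENSMUST00000037947, chromosome 3, 95658788 to 95663176, plus strand) stood at 59.8 with simvastatin and 55.7 in control in the authors' deposited table (their adjusted p = 0.625). Bcl2l1, the gene of BCL-XL, had 2 transcripts on chromosome 2 with the same coding length of 699 bases and different first exons. The form with the higher values (ENSMUST00000109820, 152780672 to 152830666, minus strand) stood at 17.8 with simvastatin and 15.8 in control in the authors' deposited table (their adjusted p = 0.778). For the other form (ENSMUST00000007803), which starts farther upstream, the authors' deposited table gives 3.83 with simvastatin and 1.64 in control, a 2.34-fold difference with an adjusted p of 0.715. The fold of this upstream Bcl2l1 form was thus close to that of Bmf below, with a far larger adjusted p. The Bcl2l1 total was 21.6 with simvastatin and 17.4 in control, a log2 ratio of 0.31.

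Of the effectors, Bax was lower by value in each of its 3 transcripts, and none passed. BAX moves from the cytosol to mitochondria and forms pores there. Bax-201 (ENSMUST00000033093, chromosome 7, 45461697 to 45466898, minus strand), the main coding form, stood at 36.4 with simvastatin and 43.4 in control in the authors' deposited table (their adjusted p = 0.382). Bax-203 (ENSMUST00000210392), whose first exon runs through what is the first intron of Bax-201, had 30.8 with simvastatin and 36.6 in control in the authors' deposited table (their adjusted p = 0.871). GENCODE tags this model as incomplete at its 3′ end and as not organism supported, at transcript support level 2. It made up 41.5% of the Bax total with simvastatin and 41.0% in control. Bax-205 (ENSMUST00000211365) had 6.96 with simvastatin and 9.17 in control in the authors' deposited table (their adjusted p = 0.718). The Bax total was 74.1 with simvastatin and 89.2 in control, a log2 ratio of -0.27, and the shares of the 3 forms in it moved by little: Bax-201 made up 49.1% with simvastatin and 48.7% in control.

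Bax-201 and Bax-205 join exon 5 to different first bases of exon 6, and their coding sequences before the stop codon have 576 and 513 bases. Their junctions are shown because these near-identical forms are told apart there, with capitals for exon 6, 5′ to 3′ on the minus strand of GRCm38.
Bax-201, chr7:45461937-45463428: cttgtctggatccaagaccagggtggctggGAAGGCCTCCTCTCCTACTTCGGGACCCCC
Bax-205, chr7:45461933-45463428: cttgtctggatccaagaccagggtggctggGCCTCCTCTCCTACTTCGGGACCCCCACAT

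Bak1, the gene of the effector BAK, which sits in the mitochondrial outer membrane, had 1 transcript (ENSMUST00000078691, chromosome 17, 27019810 to 27029009, minus strand). It stood at 22.9 with simvastatin and 22.1 in control in the authors' deposited table (their adjusted p = 0.899). This was the smallest fold of the 14 transcripts, 1.04.

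**Figure D2:**
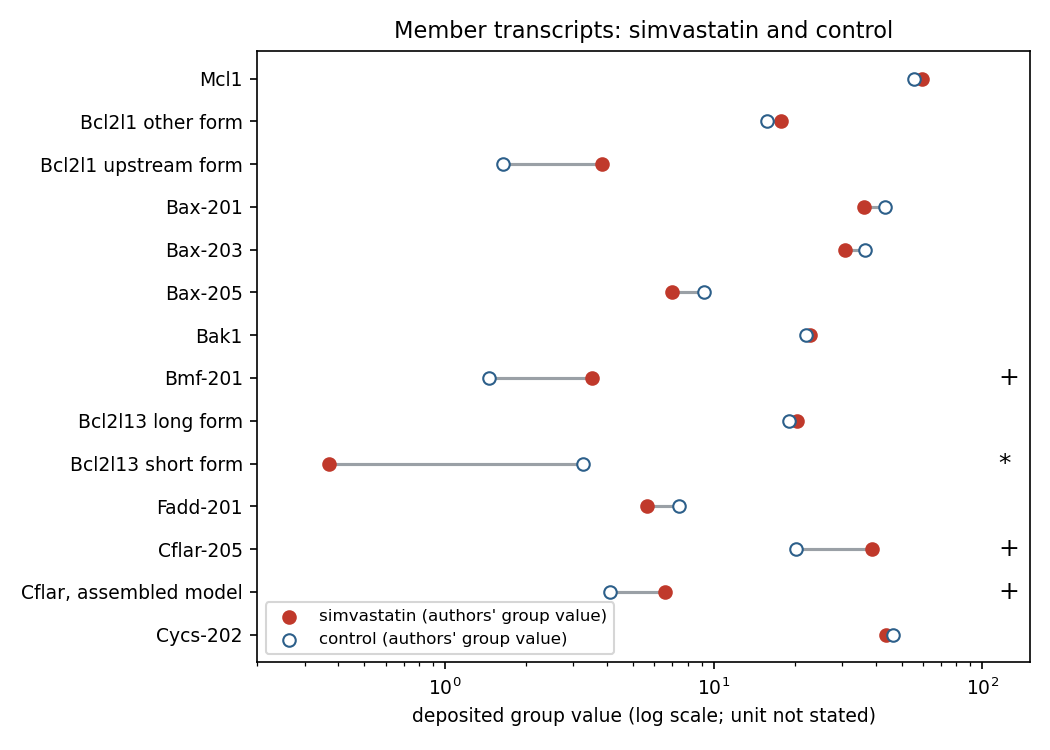
Deposited group values of the 14 transcripts on a log axis, with a filled point for simvastatin and an open point for control. The star marks the transcript with an adjusted p under 0.05 (the short Bcl2l13 form) and the plus signs mark the 3 others with the authors' call (Bmf-201 and both Cflar transcripts). Most pairs of points lie close together, and the widest gap is that of the short Bcl2l13 form.

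Bmf, a BH3-only gene whose protein is held at the actin and myosin cytoskeleton by a dynein light chain until it is released, had the largest fold among the higher transcripts of the 9 genes. Its transcript Bmf-201 (ENSMUST00000090219, chromosome 2, 118528757 to 118549687, minus strand) stood at 3.52 with simvastatin and 1.45 in control in the authors' deposited table. This was a 2.42-fold difference with a p of 0.003 and an adjusted p of 0.064 in the authors' deposited table, which carries their call. An adjusted p no larger was given to 698 transcripts (4.39%), and 19.5% of all transcripts had a larger fold in either direction. With 1 added to each group total, the log2 ratio of Bmf was 0.88 in place of 1.28, so its size depends on how the low values are treated.

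Cflar had higher values in both of its transcripts, and both carry the authors' call. Cflar-205 (ENSMUST00000114313, chromosome 1, 58711560 to 58758884, plus strand), with 10 exons and a coding sequence of 1443 bases, stood at 38.65 with simvastatin and 20.2 in control. The authors' deposited table gives it 1.91-fold with a p of 0.003 and an adjusted p of 0.065. A model assembled from reads at the same gene, whose structure was not analysed here, stood at 6.60 with simvastatin and 4.12 in control, 1.6-fold in the authors' deposited table (their adjusted p = 0.097). Together they gave a Cflar total of 45.2 with simvastatin and 24.4 in control, a log2 ratio of 0.89. Cflar-205 made up 85.4% of the total with simvastatin and 83.1% in control, so its 2 transcripts were higher by similar ratios.

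Fadd, the adaptor on the same receptor complex, was lower by value. Fadd-201 (ENSMUST00000033394, chromosome 7, 144577318 to 144582463, minus strand) stood at 5.66 with simvastatin and 7.41 in control, a 1.31-fold difference in the authors' deposited table (p = 0.008, adjusted p printed as 0.1, no call by the authors). Cycs, whose protein cytochrome c carries electrons in respiration and joins the apoptosome after release, differed by less. For Cycs-202 (ENSMUST00000161401, chromosome 6, 50562563 to 50566538, minus strand) the authors' deposited table lists 43.9 with simvastatin and 46.6 in control, a 1.06-fold difference (p = 0.005, adjusted p = 0.081). Of all transcripts, 90.6% had a larger fold than Cycs in either direction, while 5.99% had an adjusted p no larger. A small p thus went with a small difference for Cycs and a large p with a larger one for the upstream Bcl2l1 form.

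**Figure D3:**
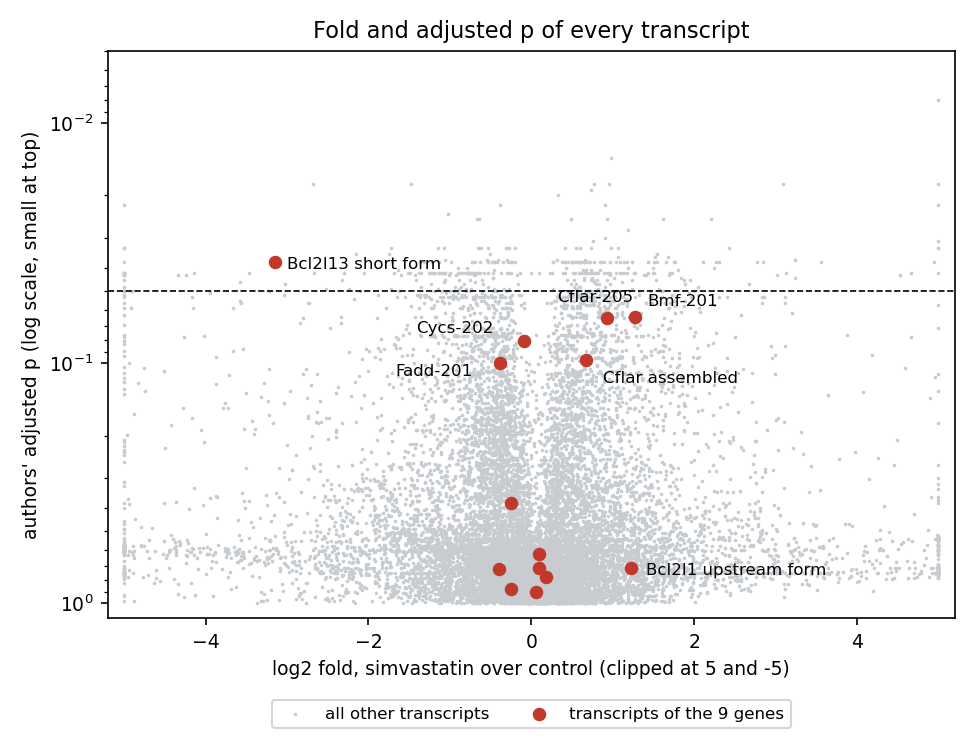
Log2 fold of simvastatin over control against the authors' adjusted p on a log axis, small values at the top, for the 14 transcripts (large points) and all others (small points); the dashed line is at 0.05. The short Bcl2l13 form lies above the line at a log2 fold of -3.15, while Bmf-201 and Cflar-205 lie just below it on the right, at 0.064 and 0.065.

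Summed per gene, 5 of the 9 totals were higher with simvastatin and 4 lower. Bmf and Cflar lay outside the interquartile range of all 8505 genes with both totals above 0, which ran from -0.32 to 0.35 on the log2 scale around a median of 0.02. Fadd lay just below it, at -0.39, and the other 6 genes lay inside it. The median over the 9 totals was 0.05. Scaling each group by its sum over all transcripts raises every log2 ratio by 0.20. The directions of Bmf, Cflar, Bcl2l1, Mcl1, Bak1, Bax and Fadd held under that scaling. Those of Bcl2l13 and Cycs turned, to 0.09 and 0.11, which is below the scaled median log2 fold of 0.21 over all transcripts. The interquartile range above is without this scaling. A sum of group values has no error of its own, so the totals were not tested.

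**Figure D4:**
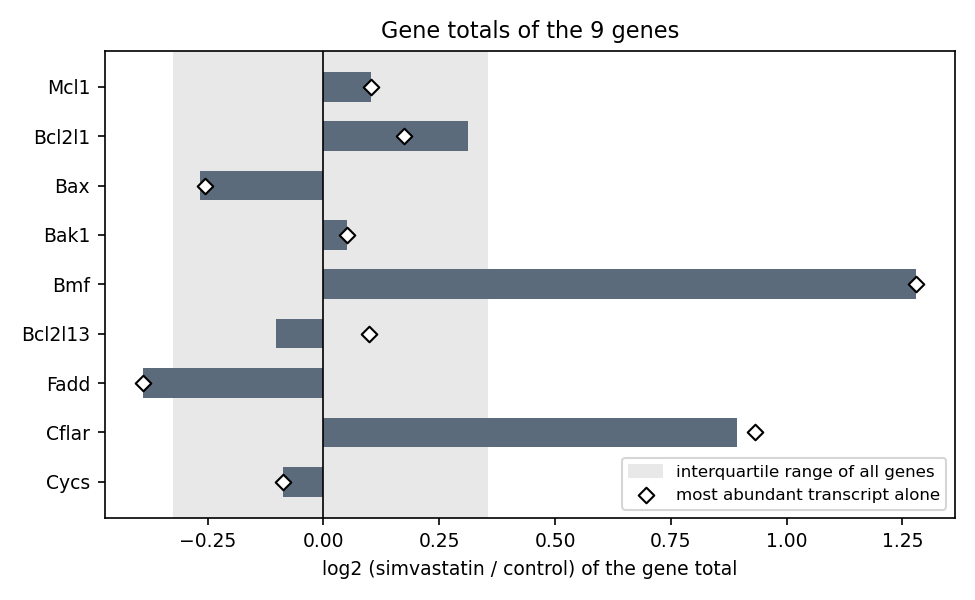
Log2 ratio of simvastatin over control for the total of each of the 9 genes (bars), the same for the most abundant transcript alone (diamonds), and the interquartile range of all genes (grey band). Bmf and Cflar extend beyond the band at 1.28 and 0.89, and for Bcl2l13 the bar and the diamond lie on opposite sides of 0.

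The rest of the apoptosis machinery was described by 10 role lists with 87 genes, the 9 genes included, of which 51 had rows (113 transcripts). Outside the 9 genes, 42 genes had 99 transcripts, of which 0 rose and 0 fell by the authors' adjusted p. At an unadjusted p under 0.05, 6 of the 99 were higher and 6 lower, against 9.42% and 10.2% of all transcripts. The authors' call marked 3 of the 99 as higher and 2 as lower, against 5.13% and 4.37% of all transcripts. None of these 4 shares of the 99 was above that of all transcripts. These 5 transcripts belong to 4 genes, which are named here after their values were seen, except Birc5, which the naming rule also gives. Bbc3, the gene of the BH3-only protein PUMA, was called in 2 of its 3 transcripts, with totals of 19.6 with simvastatin and 10.5 in control (smallest adjusted p = 0.116 in the authors' deposited table). Diablo, an antagonist of inhibitors of apoptosis, had 1 called transcript at 3.73 with simvastatin and 0.55 in control, while its other transcript stood at 5.37 and 6.99 (adjusted p = 0.175 and 0.345 in the authors' deposited table). Htra2, a mitochondrial protease that also acts on inhibitors of apoptosis, had 1 called transcript at 1.86 with simvastatin and 2.94 in control in the authors' deposited table (their adjusted p = 0.087). Birc5 encodes survivin, an inhibitor of apoptosis family protein that also works in mitosis. It stood at 33.7 with simvastatin and 69.3 in control in the authors' deposited table (their adjusted p = 0.082).

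By role, the signs of the transcripts, called or not, were mixed, and the medians are given beside a median log2 fold of 0.01 over all 15905 transcripts. Of 3 anti-apoptotic transcripts from 2 of 8 genes, all were higher by value (median 0.18). Of 4 effector transcripts from 2 of 3 genes, 1 was higher and 3 lower by value (median -0.25). The BH3-only and BNIP list had 11 transcripts from 7 of 12 genes, 7 higher and 4 lower by value (median 0.25). Bnip3, a mitophagy receptor gene, stood at 134 with simvastatin and 155 in control in the authors' deposited table, and its paralog Bnip3l at 49.5 and 41.4. The divergent list, to which Bcl2l13 belongs, had 3 transcripts from 2 of 4 genes (median -0.49), with Bcl2l12 at 2.61 with simvastatin and 3.65 in control in the authors' deposited table. Death receptor signalling had 11 transcripts from 7 of 15 genes, 6 higher and 5 lower by value (median 0.25). There the totals were 41.2 with simvastatin and 32.0 in control for the TNF receptor gene Tnfrsf1a, and 21.7 and 22.5 for Faf1, whose protein binds FAS.

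Downstream of the mitochondria, all 9 genes of the release and apoptosome list had rows, with 5 transcripts higher and 14 lower by value (median -0.23). The totals of the outer membrane channel genes were 171 with simvastatin and 211 in control for Vdac1, and 83.2 and 96.0 for Vdac3. The Vdac1 transcripts went both ways (smallest adjusted p = 0.594 in the authors' deposited table). A single Vdac1 transcript was higher by value, at 69.1 with simvastatin and 23.0 in control, and the others were lower. The caspases had 8 transcripts from 5 of 10 genes, 3 higher and 5 lower by value (median -0.18). Casp8, the caspase that FADD recruits, totalled 26.9 with simvastatin and 27.5 in control. Inhibitors of apoptosis had 9 transcripts from 3 of 9 genes, 7 higher and 2 lower by value (median 0.23). In that list Birc6, a very large member, totalled 41.2 with simvastatin and 34.7 in control. Execution nucleases and substrates had 5 transcripts from 2 of 5 genes, 1 higher and 4 lower by value (median -0.52). The caspase substrate gene Parp1 stood at 32.6 with simvastatin and 46.7 in control in the authors' deposited table (their adjusted p = 0.073), and Acin1 totalled 12.05 and 14.6. The partner and turnover list had 40 transcripts from 12 of 12 genes, 18 higher and 22 lower by value (median -0.06). In it Tmbim6, a BAX inhibitor of the endoplasmic reticulum, totalled 147 with simvastatin and 128 in control, and the adaptor gene Ywhaz 229 and 243.

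**Figure D5:**
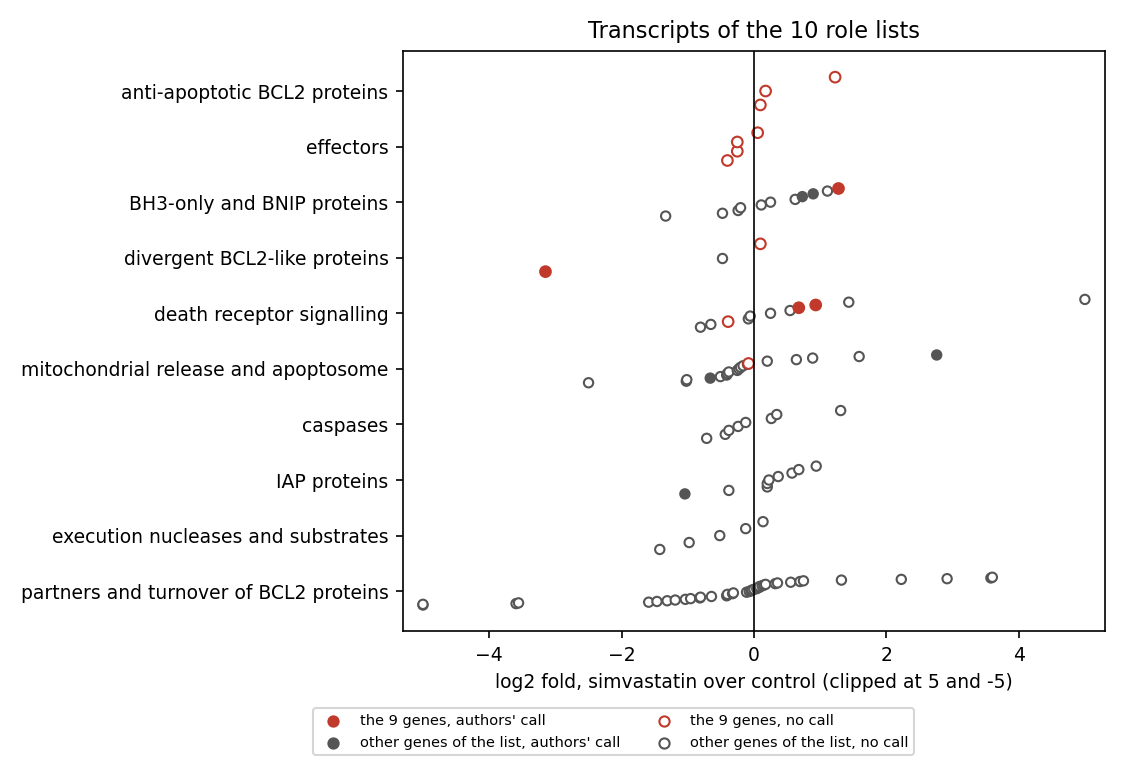
Log2 fold of simvastatin over control for the 113 transcripts of the 10 role lists, clipped where the size passes 5, with the 9 genes in red and the other genes in grey. Filled points carry the authors' call: 4 transcripts of the 9 genes and 5 of other genes, on both sides of 0.

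In the authors' enrichment table, Cflar appears under 5 of 148 terms, all among those for higher genes, and Bmf under 2. The most specific of them for Cflar were the positive regulation of the ERK cascade (11 genes, fold enrichment 2.87, adjusted p = 0.0147) and autophagy (20 genes, fold enrichment 2.9, adjusted p = 0.00283), as given in the authors' deposited table. Bmf was listed under cytoplasm and protein binding. The other 7 genes, Bcl2l13 among them, appear under no term. The enrichment was of called genes, and of these 7 only Bcl2l13 has a transcript with the authors' call. The absence of the rest was therefore set in advance.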

How the data were processed

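RNA from 3 simvastatin and 3 control samples of B16.F10 cells had been sequenced from stranded total RNA libraries, per the labels' protocols. Titles gave the groups. Reads had been processed with HISAT2 2.0.5 and StringTie, with GRCm38 (mm10) as genome build, as the submitters' processing notes list them. The sources used here name no other upstream step. The deposited main table holds a signal (1 expression value per group and transcript, unit not stated), a signed fold and a p-value and an adjusted p-value to 3 decimals, all made by the authors. The deposited enrichment table (other values) holds, per the file headers, fold enrichment, gene counts and adjusted p-values from DAVID. Only these group values were used, so no model was refitted, no SD could be had, and depth is unknown.

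Rows were matched by symbol. Values were summed per gene, and log2 ratios, shares and counts were computed with Python 3.11.15, pandas 2.3.3 and numpy 2.4.6. The Benjamini-Hochberg adjustment was tested on the authors' p-values in shuffled order. The sums were tested on the control values multiplied by set factors. Structures and coding sequences came from GENCODE release 21 (GRCm38), which held the 13 Ensembl transcripts. Named are the 9 genes, role list genes with a transcript at an adjusted p under 0.05, and otherwise the 2 of highest mean total per list. 1 gene that this rule gives is not reported here. The genes and lists were chosen with earlier results of these data known. The labels call the samples biological replicates without naming separate cultures, so the spread between samples behind the authors' p-values may be technical.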

Additional observations from a re-analysis of the deposited data

How the results depend on the processing

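Counts depended on the threshold. Among the 14 transcripts, 0 were higher and 1 lower as reported. At an adjusted p under 0.1 these were 3 and 2 (Cycs added on the lower side), and by the authors' call 3 and 1. Among the other role list transcripts, 0 higher and 0 lower became 0 and 3 at 0.1 and 3 and 2 by the authors' call. Over all transcripts, 176 higher and 157 lower became 639 and 598 at 0.1, 816 and 695 by the authors' call, and 344 and 304 with the adjustment recomputed from the printed p-values. A p printed to 3 decimals loses digits, with 184 printed as 0. Recomputing the adjustment, or keeping transcripts with a mean of at least 1, left the counts of the 14 at 0 and 1. The number of higher gene totals, 5 of 9, stayed within 1.5 times under all 4 alternatives. The Bcl2l13 ratio turned to 0.10 with the most abundant transcript and to 0.095 with scaling by the group sum, and the Cycs ratio to 0.11 with that scaling. No paired analysis was possible because the tables used give no values per sample, and leaving out replicates was not run for the same reason. Depth could not be assessed.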

Other observations

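Some transcripts of the partner and turnover list and of the death receptor list, picked after their values were seen, differed by large folds without passing the threshold. Mdm2, the ubiquitin ligase gene that restrains p53, had 1 transcript at 0.58 with simvastatin and 6.85 in control and another at 6.96 with simvastatin and 0.58 in control (adjusted p = 0.613 and 0.779 in the authors' deposited table). Its gene total was 44.9 with simvastatin and 44.9 in control. A second transcript of Tnfrsf1a stood at 3.28 with simvastatin and 0.01 in control (adjusted p = 0.751 in the authors' deposited table). Trp53, the p53 gene, totalled 38.8 with simvastatin and 51.5 in control over 5 transcripts, each lower by value, with a smallest adjusted p of 0.374 in the authors' deposited table. The dynein light chain genes, whose proteins bind BMF and BIM, totalled 28.6 with simvastatin and 36.4 in control for Dynll1, and 30.7 and 27.1 for Dynll2. An assembled Dynll2 transcript stood at 0.09 with simvastatin and 4.61 in control (adjusted p = 0.924 in the authors' deposited table). The other Dynll2 transcripts were higher by value.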
